A study of Mus musculus with 13 samples.

Results

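The genes described here are the VEGF receptors Flt1, Kdr and Flt4, the ligands Vegfa, Vegfb and Pgf, the neuropilin co-receptors Nrp1 and Nrp2, and the angiopoietin receptor Tek, which together make up 9 of the 52636 genes measured in myeloid cells sorted from PS2APP brains. Members were matched by gene symbol, but the family was chosen on the genotype difference in Flt1 read counts of these same mice, which was already known. The differences between genotypes within the family are therefore given as a description, with no test. In total 7 of the 9 genes passed the expression filter for the comparison of genotypes, and Flt4 and Pgf were too low to enter it.

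All 13 mice carried the PS2APP transgenes, which encode mutant human presenilin 2 and amyloid precursor protein and lead to β-amyloid plaques. The 7 PS2APP;Trem2wt mice (5 females and 2 males) had intact Trem2, and the 6 PS2APP;Trem2ko mice (5 females and 1 male) lacked it through a null allele made in C57BL/6N mice, which was crossed into the C57BL/6J transgenic line. The mice were 14 to 15 months old, and no mouse without the PS2APP transgenes was included. CD11b+ CD45+ Ccr2- Ly6g- cells, which are mostly microglia but also hold perivascular macrophages, were sorted from cortex and hippocampus after the tissue had been dissociated on ice, and each mouse is 1 replicate. The study processed most mice in pairs of both genotypes from perfusion to sorting, but the labels do not say which mice formed a pair, so no comparison here takes the pairs into account.

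VEGF ligands are secreted dimers that bind receptor tyrosine kinases, best known on the endothelial cells that line blood vessels. Kdr, also called VEGFR2, is the main signalling receptor for Vegfa. Flt1, also called VEGFR1, binds Vegfa, Vegfb and Pgf tightly and signals weakly, is also made as a soluble decoy, and is known from monocytes and macrophages as well as from endothelium. Flt4, or VEGFR3, serves Vegfc and Vegfd in lymphatic vessels, and Tek, or Tie2, is the endothelial receptor for angiopoietins.

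Levels are given as nRPKM, an RPKM value (reads scaled by gene length and library depth) adjusted by a size factor. Any comparison of levels between genes rests on the gene lengths used in this scaling. Each mouse contributed between 26120961 and 120569609 counts on genes, and 3 counts, taken as the floor of detection, corresponded to between 0.0237 and 0.112 CPM, counts scaled to library depth. This floor covers counting error only. Trem2 lay between 818 and 1244 nRPKM in the PS2APP;Trem2wt mice and between 0.393 and 2.29 nRPKM in the PS2APP;Trem2ko mice. Among the 8 microglia markers, such as P2ry12 and Tmem119, 0 of 8 passed the threshold by edgeR, voom+limma or DESeq2, and 0 had an unadjusted p of 0.05 or less. Over all genes edgeR called 1.53% lower and 0.503% higher. Their summed level was between 11602 and 14555 nRPKM in PS2APP;Trem2wt mice and between 12637 and 13993 nRPKM in PS2APP;Trem2ko mice. PS2APP;Trem2wt replicate 2, a male, stood apart from the others in markers of vessel cells, and PS2APP;Trem2wt replicate 3, a female, stood apart in Nrp1, so log2 fold changes of the family that rest on them are given with and without them. The same replicate 2 was also highest in the sum of 6 monocyte and neutrophil markers, at 126 nRPKM against 6.85 to 50.7 nRPKM in the other PS2APP;Trem2wt mice and 2.61 to 29.1 nRPKM in the PS2APP;Trem2ko mice.

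Flt1 (ENSMUSG00000029648, minus strand of chr5:147561604-147726011 in GRCm38) was the one family member with a large difference between genotypes. In PS2APP;Trem2wt microglia Flt1 was at 1.93, 2.52, 2.78, 1.27, 1.30, 0.998 and 1.54 nRPKM in replicates 1 to 7, with 471 to 3149 reads per mouse. In PS2APP;Trem2ko microglia Flt1 was at 0.238, 0.553, 0.363, 0.389, 0.241 and 0.534 nRPKM in replicates 1 to 6, with 238 to 546 reads per mouse. All 6 PS2APP;Trem2ko mice lay below all 7 PS2APP;Trem2wt mice, as the plot of each gene by mouse shows. The means were 1.76 ± 0.674 (SD, n = 7) and 0.386 ± 0.137 (SD, n = 6) nRPKM, and by its counts Flt1 was 4.6-fold lower where Trem2 was absent (log2 fold change -2.20 ± 0.28, SE). Without PS2APP;Trem2wt replicate 2 the log2 fold change of Flt1 was -2.10 ± 0.27 (SE), without replicate 3 it was -2.06 ± 0.26 (SE), and among females only it was -2.0 ± 0.30 (SE). In bulk RNA of sorted cells, fewer cells that express a gene and less RNA per cell cannot be told apart, and counts per gene do not separate the soluble form of Flt1 from the membrane receptor.

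**Figure D1:**
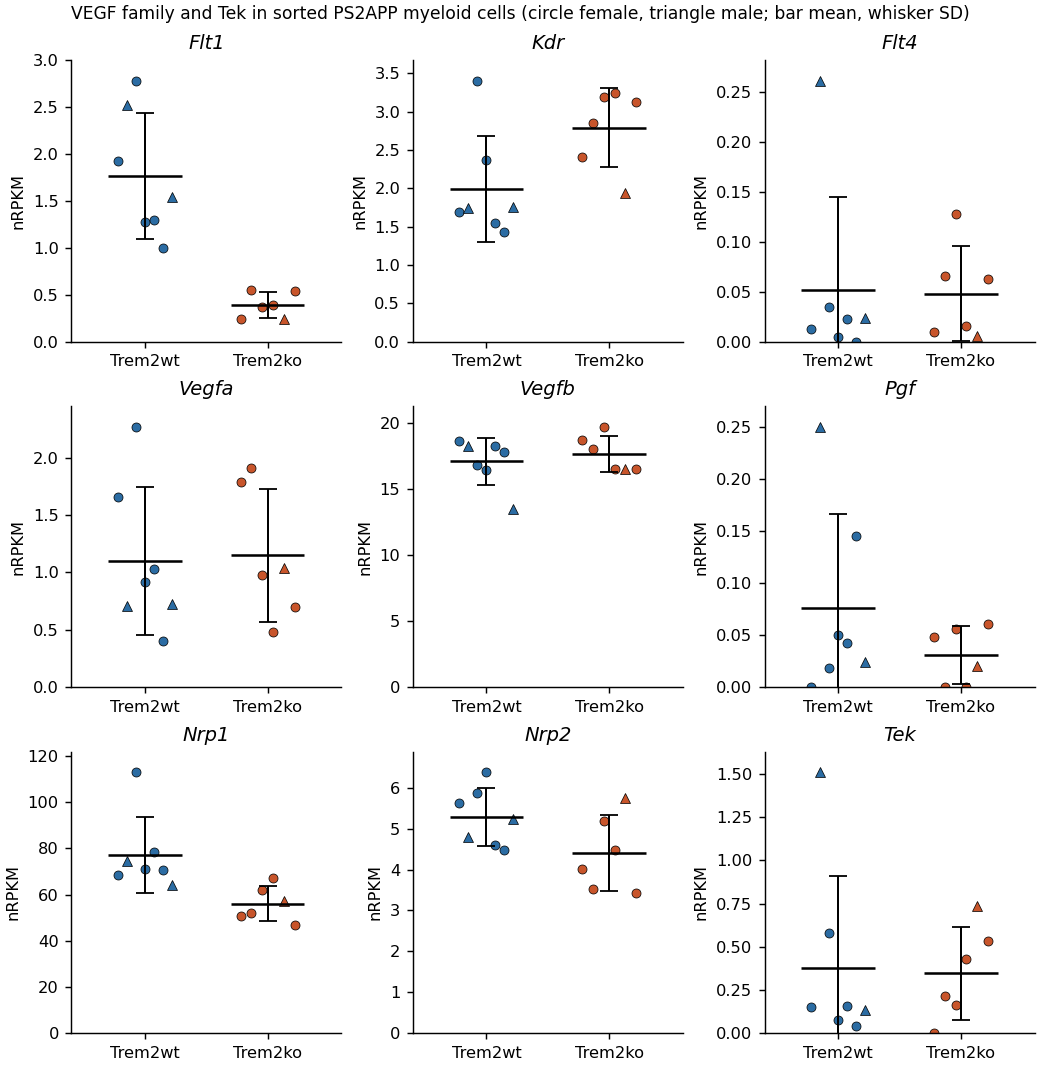
Each panel plots 1 gene, with its nRPKM on a linear axis that starts at 0 and the genotypes PS2APP;Trem2wt (7 mice, blue) and PS2APP;Trem2ko (6 mice, orange) side by side; circles are females, triangles males, the bar is the mean and the whisker the SD, drawn down to 0 where it would pass below. Flt1 is the only panel in which the genotypes do not overlap, while Nrp1 and Nrp2 are lower in most PS2APP;Trem2ko mice with some overlap, and Vegfa covers a like range in both.

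Over all genes, the share called lower in PS2APP;Trem2ko microglia by edgeR at an adjusted p of 0.05 or less was 1.53% of the 17086 tested, and the share called higher was 0.503%. With the 2-fold cutoff of the study added, these shares were 0.691% and 0.0527%. Both genotypes were fully separated in normalized counts for 1.22% of genes in the lower direction and for 0.421% in the higher direction. Of the 7 family members tested, 1 (Flt1) was called lower, with and without the 2-fold cutoff, and 0 were called higher, while Flt1 was also the only member whose genotypes did not overlap. Since the family was proposed with the Flt1 difference in view, nothing is read from the share of members called. DESeq2, which over all genes called 3.10% lower and 1.94% higher, called Nrp1 lower as well. Kdr was called higher by edgeR when PS2APP;Trem2wt replicate 3 was left out, a fit that called 208 of 16874 genes lower and 56 higher. The median log2 fold change was -0.11 over the 7 members and 0.00 over all genes tested.

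Kdr (ENSMUSG00000062960, minus strand of chr5:75932827-75978458) did not follow Flt1. Kdr was at 1.69, 1.74, 3.40, 2.37, 1.54, 1.43 and 1.75 nRPKM in the 7 PS2APP;Trem2wt mice and at 2.41, 2.85, 3.19, 3.24, 1.94 and 3.12 nRPKM in the 6 PS2APP;Trem2ko mice, each in the order of the replicates. The highest single value was that of PS2APP;Trem2wt replicate 3, and the other 6 PS2APP;Trem2wt mice were mixed with or below the PS2APP;Trem2ko mice, 5 of them below every one. For Kdr the log2 fold change was 0.48 ± 0.19 (SE), opposite in sign to that of Flt1, and 0.67 ± 0.14 (SE) without replicate 3.

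Flt1 and Kdr were also compared as a ratio of nRPKM within each mouse, which needs no scaling between libraries. The size of this ratio depends on the gene lengths used for nRPKM, which are the same for both genotypes. The Flt1 to Kdr ratio was 0.910 ± 0.301 (SD, n = 7) in PS2APP;Trem2wt microglia, between 0.537 and 1.45 with a median of 0.846. In PS2APP;Trem2ko microglia it was 0.137 ± 0.037 (SD, n = 6), between 0.0991 and 0.194 with a median of 0.122. Every PS2APP;Trem2wt mouse thus had a ratio above that of every PS2APP;Trem2ko mouse. This difference was not tested, since Flt1 values entered the choice of the family.

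Flt4 (ENSMUSG00000020357, plus strand of chr11:49609263-49652739) was too low for the expression filter. Flt4 lay between 0 and 0.261 nRPKM in PS2APP;Trem2wt mice, with a median of 0.0228 nRPKM and at most 63 reads, and between 0.00577 and 0.128 nRPKM in PS2APP;Trem2ko mice, with a median of 0.0392 nRPKM and at most 48 reads. The highest Flt4 value was that of PS2APP;Trem2wt replicate 2, and the next highest of that genotype was at 0.0341 nRPKM.

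Tek (ENSMUSG00000006386, plus strand of chr4:94739289-94874976), the angiopoietin receptor, varied widely within each genotype. Tek was at 0.149, 1.51, 0.579, 0.0723, 0.159, 0.0395 and 0.133 nRPKM in the PS2APP;Trem2wt mice and at 0, 0.215, 0.163, 0.431, 0.736 and 0.532 nRPKM in the PS2APP;Trem2ko mice. PS2APP;Trem2ko replicate 1 had 0 Tek reads although it was the deepest library, where the floor of 3 counts corresponds to 0.0237 CPM, and PS2APP;Trem2wt replicate 2 was the highest. For Tek the log2 fold change was -0.11 ± 0.90 (SE), and it turned to 0.84 ± 0.84 (SE) without PS2APP;Trem2wt replicate 2, so no direction can be given.

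Of the ligands, Vegfb was by far the most abundant. Vegfb (ENSMUSG00000024962, minus strand of chr19:6982473-6987651), which binds Flt1 and Nrp1 but not Kdr, lay between 13.5 and 18.6 nRPKM in PS2APP;Trem2wt mice, with a median of 17.8 nRPKM, and between 16.5 and 19.7 nRPKM in PS2APP;Trem2ko mice, with a median of 17.2 nRPKM. The ranges overlapped, as 2 PS2APP;Trem2ko mice exceeded every PS2APP;Trem2wt mouse and 2 PS2APP;Trem2wt mice lay below every PS2APP;Trem2ko mouse, and the log2 fold change of Vegfb was 0.05 ± 0.08 (SE).

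Vegfa (ENSMUSG00000023951, minus strand of chr17:46016993-46032369), the ligand of both Flt1 and Kdr and the form induced by low oxygen, was lower and more variable. Vegfa lay between 0.402 and 2.27 nRPKM in PS2APP;Trem2wt mice, with a median of 0.913 nRPKM, and between 0.480 and 1.91 nRPKM in PS2APP;Trem2ko mice, with a median of 1.01 nRPKM. The genotypes overlapped throughout and the log2 fold change of Vegfa was 0.06 ± 0.38 (SE), with a sign that depended on which mice were kept. Vegfa lies 2.31 Mb from Trem2 on chromosome 17.

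As Vegfa varied more than Vegfb between mice, the Vegfb to Vegfa ratio was spread widely, at 20.4 ± 12 (SD) over the 7 PS2APP;Trem2wt mice and 18.9 ± 9.28 (SD) over the 6 PS2APP;Trem2ko mice. Pgf (ENSMUSG00000004791, minus strand of chr12:85166635-85177790), a ligand of Flt1 alone among the receptors, was near the floor, between 0 and 0.25 nRPKM in PS2APP;Trem2wt and between 0 and 0.0602 nRPKM in PS2APP;Trem2ko mice. No mouse had more than 20 Pgf reads, and 1 PS2APP;Trem2wt and 2 PS2APP;Trem2ko mice had 0, so a difference in Pgf was not detectable at this depth. Vegfa and Vegfb, which both bind Flt1, were thus measured at overlapping levels in the genotypes between which Flt1 itself differed.

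Nrp1 and Nrp2 are co-receptors that bind VEGF isoforms on one side and class 3 semaphorins, guidance cues that act with plexins, on the other. Nrp1 (ENSMUSG00000025810, plus strand of chr8:128358604-128503363) was the most abundant family member. Nrp1 lay between 64.0 and 113 nRPKM in PS2APP;Trem2wt mice, with a median of 71.2 nRPKM, and between 46.8 and 67.0 nRPKM in PS2APP;Trem2ko mice, with a median of 54.6 nRPKM. There was little overlap: 5 of the 6 PS2APP;Trem2ko mice lay below every PS2APP;Trem2wt mouse, and 6 of the 7 PS2APP;Trem2wt mice lay above every PS2APP;Trem2ko mouse. The log2 fold change of Nrp1 was -0.47 ± 0.13 (SE), and -0.35 ± 0.09 (SE) without PS2APP;Trem2wt replicate 3, whose 113 nRPKM stood far above the next mouse at 78.4 nRPKM.

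Nrp2 (ENSMUSG00000025969, plus strand of chr1:62703285-62818695) was lower in level and overlapped more. Nrp2 lay between 4.48 and 6.38 nRPKM in PS2APP;Trem2wt mice, with a median of 5.25 nRPKM, and between 3.42 and 5.76 nRPKM in PS2APP;Trem2ko mice, with a median of 4.24 nRPKM. In PS2APP;Trem2ko microglia 4 of 6 mice were below every PS2APP;Trem2wt mouse, but the male, replicate 5, was the highest of its genotype, and the log2 fold change of Nrp2 was -0.27 ± 0.13 (SE).

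In nRPKM the order of the levels was the same at the top in both genotypes. Nrp1 was above Vegfb, Vegfb above Nrp2 and Nrp2 above Kdr in every mouse, with no overlap between neighbours. Below these, Kdr, Flt1 and Vegfa lay close together in PS2APP;Trem2wt microglia: Kdr exceeded Flt1 in 5 of 7 mice and Flt1 exceeded Vegfa in 7 of 7, but the ranges of neighbours overlapped. In PS2APP;Trem2ko microglia the order of Flt1 and Vegfa turned round, with Vegfa above Flt1 in 6 of 6 mice. Flt1 and Tek, its next lower neighbour there, overlapped, with Flt1 above Tek in 4 of 6 mice. Tek, Flt4 and Pgf were the lowest of the family in PS2APP;Trem2wt microglia and, below Flt1, in PS2APP;Trem2ko microglia. Parts of this order depend on the scaling by gene length, which CPM lack. In PS2APP;Trem2wt mice the mean CPM was 78.39 for Nrp2 and 31.21 for Vegfb, and 27.61 for Flt1 and 16.83 for Kdr. In PS2APP;Trem2ko mice it was 6.045 for Flt1 and 5.775 for Vegfa.

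**Figure D2:**
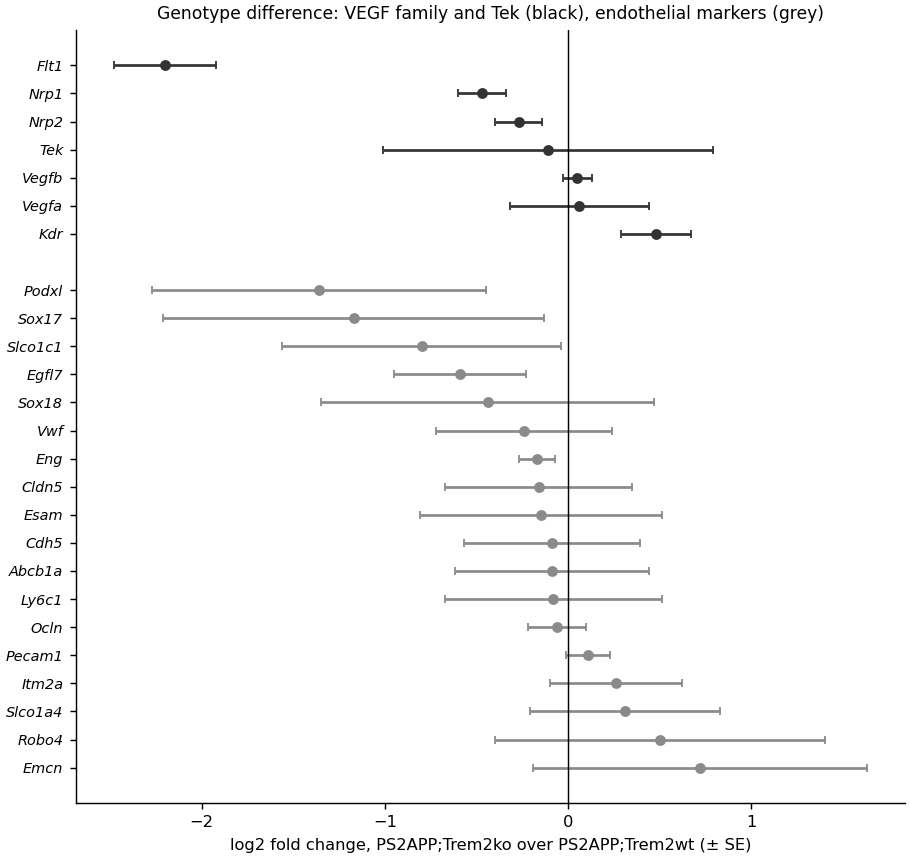
The x axis is the log2 fold change of PS2APP;Trem2ko over PS2APP;Trem2wt microglia from edgeR and the bars are the SE, for the 7 family members tested (black) and the 18 endothelial markers tested (grey), each set sorted by value. Flt1 lies at -2.20 with a small error, Kdr lies to the right of 0, and the endothelial markers scatter around 0 with a median of -0.12.

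Since Kdr, Flt4 and Tek are best known from endothelium, a list of 20 endothelial markers was examined in the same fit. Of the 18 markers tested, 0 were called by edgeR in either direction, 0 had an unadjusted p of 0.05 or less, and voom+limma and DESeq2 also called 0. Over all genes edgeR called 1.53% lower and 0.503% higher, so 0 calls among 18 genes is near that share. The log2 fold change was below 0 for 13 markers and above 0 for 5. Its SE ran from 0.10 to 1.04, so the lack of calls does not show equal levels of the less abundant markers. The median log2 fold change of the markers was -0.12, against 0.00 over all genes, and their smallest adjusted p was 0.461 by edgeR. The most abundant were Eng, a TGF-β co-receptor, at 21.7 ± 2.66 (SD, n = 7) and 19.4 ± 2.46 (SD, n = 6) nRPKM in PS2APP;Trem2wt and PS2APP;Trem2ko microglia, and the adhesion molecule Pecam1, at 5.79 ± 1.09 and 6.24 ± 0.9 nRPKM. These and Itm2a and Ocln were at 1 nRPKM or more in every mouse. The tight junction protein Cldn5 had medians of 1.16 and 1.94 nRPKM, and the endothelial cadherin Cdh5 did not exceed 0.341 nRPKM in any mouse. Erg, an endothelial transcription factor, had 0 reads in 3 PS2APP;Trem2wt and 1 PS2APP;Trem2ko mice, and Cyyr1 had 0 in 2 and 3.

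The 16 endothelial markers without Pecam1, Ocln, Eng and Itm2a, a choice made after seeing the data, summed to 7.61, 26.9, 11.3, 3.79, 2.64, 3.16 and 4.52 nRPKM in the PS2APP;Trem2wt mice and to 3.18, 8.02, 4.63, 8.08, 5.85 and 13.4 nRPKM in the PS2APP;Trem2ko mice. Replicate 2 of PS2APP;Trem2wt, with 26.9 nRPKM, also had the highest sum of mural cell markers, at 13.7 nRPKM against 0.64 to 4.71 nRPKM in the other 12 mice. The medians of the 16 markers were 4.52 and 6.93 nRPKM, and the genotypes overlapped. As single values, the PS2APP;Trem2ko mouse with the highest sum, 13.4 nRPKM, had 0.534 nRPKM of Flt1, while the PS2APP;Trem2wt mice with sums of 2.64, 3.16, 3.79 and 4.52 nRPKM had 1.30, 0.998, 1.27 and 1.54 nRPKM of Flt1. These values describe the mice and test nothing, since the Flt1 difference chose the family and the genotypes did not overlap in Flt1. The plot of receptors against these markers gives all 13 mice.

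**Figure D3:**
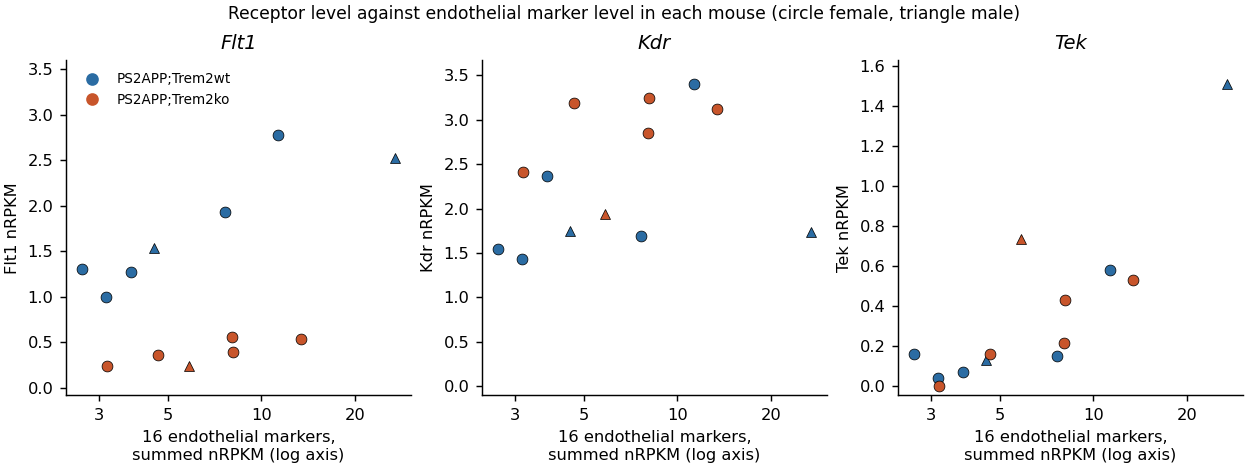
Each point is 1 mouse (blue PS2APP;Trem2wt, orange PS2APP;Trem2ko; circles females, triangles males), with the summed nRPKM of 16 endothelial markers on a logarithmic x axis and the nRPKM of Flt1, Kdr or Tek on a linear y axis. The genotypes are separate in Flt1, by which the family was chosen. In Kdr they overlap, with 5 of 7 PS2APP;Trem2wt mice below every PS2APP;Trem2ko mouse and 1 above every one. Tek is highest, at 1.51 nRPKM, in the mouse with the highest sum, 26.9 nRPKM.

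Within each genotype, variation between mice is independent of the genotype difference, so the levels of the 9 members were correlated with the sum of all 20 endothelial markers and with that of 8 border macrophage markers, in log2(CPM + 0.1). CPM were summed before the log, so abundant markers weigh most in the endothelial sum. The largest part was Eng, at means of 110.8 CPM in PS2APP;Trem2wt and 98.59 CPM in PS2APP;Trem2ko mice, followed by Pecam1 at 34.16 and 36.78 CPM. Over these 36 relations, 2 values of r had an unadjusted exact permutation p of 0.05 or less and 0 an adjusted one (two-sided, Benjamini-Hochberg over the 36). Both were in PS2APP;Trem2wt mice with the endothelial sum: Flt4 with Pearson's r = 0.866 (exact permutation p = 0.024, adjusted p = 0.496) and Spearman's rho = 0.75 (exact permutation p = 0.0663, adjusted p = 0.916), and Tek with r = 0.811 (exact permutation p = 0.0276, adjusted p = 0.496) and rho = 0.536 (exact permutation p = 0.236, adjusted p = 0.916). Without the 2 mice farthest from the median sum, r fell to 0.174 for Flt4 and was -0.146 for Tek, so both relations rest on those mice.

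For Flt1 and the endothelial sum, r was 0.611 (exact permutation p = 0.135, adjusted p = 0.559) and rho 0.5 (exact permutation p = 0.267, adjusted p = 0.916) in the 7 PS2APP;Trem2wt mice, and r was -0.163 without the 2 farthest mice. Without PS2APP;Trem2wt replicate 2 alone, r was 0.435 (adjusted p = 0.845 by the exact permutation test). In the 6 PS2APP;Trem2ko mice r was 0.791 (exact permutation p = 0.0931, adjusted p = 0.559) and rho 0.714 (exact permutation p = 0.136, adjusted p = 0.916), and r was 0.968 without the 2 farthest mice. With the mean of log2 marker values in place of the sum, r for Flt1 was 0.856 in PS2APP;Trem2wt and 0.842 in PS2APP;Trem2ko mice. The adjusted p values were 0.202 and 0.3 by the exact permutation test. With nRPKM in place of CPM, r was 0.746 and 0.814 (adjusted p = 0.46 and 0.525 by the same test). With the 16 markers, r for Flt1 was 0.862 and 0.805 in the respective genotypes, with adjusted p values of 0.186 and 0.5 by the exact permutation test. For Kdr and the endothelial sum, r was 0.102 (exact permutation p = 0.8, adjusted p = 0.86; rho = 0.286, exact permutation p = 0.556, adjusted p = 0.916; r = -0.275 without the 2 farthest) in PS2APP;Trem2wt mice. In PS2APP;Trem2ko mice r for Kdr was 0.467 (exact permutation p = 0.364, adjusted p = 0.827; rho = 0.143, exact permutation p = 0.803, adjusted p = 0.932; r = 0.892 without the 2 farthest). With 6 mice the smallest exact permutation p is 0.00278, and a single relation at that p would have an adjusted p of 0.1. A lone relation in PS2APP;Trem2ko mice, or in PS2APP;Trem2wt mice with 1 left out, thus could not pass the threshold. The part of endothelial RNA in the level of any member was not tested.

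The border macrophage markers were looked at because perivascular macrophages share the sorting gate. Of the 8 markers, which include Mrc1, Cd163, Lyve1 and Pf4, 0 were called by edgeR, voom+limma or DESeq2, and 0 had an unadjusted p of 0.05 or less by edgeR. Their sum lay between 11.5 and 33.8 nRPKM in PS2APP;Trem2wt and between 19.2 and 49.1 nRPKM in PS2APP;Trem2ko mice. With this sum, r for Flt1 was 0.292 (exact permutation p = 0.522, adjusted p = 0.827; rho = 0.214, exact permutation p = 0.662, adjusted p = 0.916; r = -0.0945 without the 2 farthest) in PS2APP;Trem2wt mice. In PS2APP;Trem2ko mice it was -0.475 (exact permutation p = 0.321, adjusted p = 0.827; rho = -0.657, exact permutation p = 0.175, adjusted p = 0.916; r = -0.584 without the 2 farthest). Of the monocyte and neutrophil markers, S100a8 differed by -1.60 ± 0.77 (SE) on the log2 scale (adjusted p = 0.35 by edgeR) and S100a9 by -1.60 ± 0.72 (SE; adjusted p = 0.309 by edgeR). The other genes tested of this list did not share 1 direction. Ly6c2 differed by -0.50 ± 0.90 (SE), Ccr2 by 0.38 ± 0.39 (SE) and Plac8 by 0.97 ± 0.52 (SE), and none was called by edgeR. Flt1 is known from monocytes, and the part of such cells in its level was not tested. Over the other marker lists together (mural cells, monocytes and neutrophils, border macrophages, astrocytes, neurons, oligodendrocytes and microglia), edgeR called 0 of 41 genes tested, with unadjusted p values of 0.05 or less for 1 lower and 1 higher gene. The shares called over all genes by edgeR were 1.53% lower and 0.503% higher. The glutamate transporter Slc1a3, listed with astrocytes, was called higher by voom+limma and by DESeq2, which over all genes called 0.650% and 1.94% higher.

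As a description of the Flt1 pattern, 13323 genes with a mean of at least 1 CPM were ranked by Pearson's r with Flt1 over the 13 mice, which share genotype and library. The 5 most alike were Nbl1, a secreted BMP antagonist, at 0.963, Pacsin1, an endocytosis adaptor, at 0.956, the integrin Itgax (CD11c) at 0.952, the fatty acid-binding protein Fabp5 at 0.951 and Fxyd6, a regulator of the sodium pump, at 0.95. Over the same mice r with Flt1 was 0.732 for Nrp1, 0.398 for Nrp2, 0.251 for Tek, 0.064 for Vegfa, -0.174 for Vegfb and -0.345 for Kdr. The ranking changed once the mean of each genotype was subtracted. The 5 most alike were then Ggct, a glutathione-cycle enzyme, at 0.892, the endothelial surface protein Ly6c1 at 0.879, the annexin Anxa9 at 0.867, the adenylyl cyclase Adcy4 at 0.855 and the endothelial receptor Tie1 at 0.853. On this scale r was 0.647 for Tek, 0.621 for Kdr, 0.276 for Nrp1 and -0.228 for Nrp2. Neither ranking was repeated without PS2APP;Trem2wt replicate 2, the highest mouse in Tek and Tie1.

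Other genes of the VEGF pathway were taken from 4 lists of 71 genes, of which 59 were tested. These lists, like the marker lists, were chosen with earlier results of these data known. Their counts and p values are therefore a description and no independent test of the pathway. By edgeR 4 of the 59 were called lower, with 7 at an unadjusted p of 0.05 or less, and 0 were called higher, with 1 at an unadjusted p of 0.05 or less. Over all genes the shares called lower and higher by edgeR were 1.53% and 0.503%. By DESeq2 6 were called lower and 1 higher, where the shares over all genes were 3.10% and 1.94%. By voom+limma 5 were called lower and 0 higher (with an unadjusted p of 0.05 or less for 1 higher gene), with 1.90% of all genes called lower. The lower genes added to those of edgeR were Ptk2, by both tools, and the plexin Plxnd1, by DESeq2. By edgeR their log2 fold changes were -0.47 ± 0.12 (SE; adjusted p = 0.0628) and -1.07 ± 0.34 (SE; adjusted p = 0.141). The median log2 fold change of the 59 genes was -0.05. Among the 17 genes of hypoxia control, 16 were tested and 1 was called lower, while of the 35 signalling genes downstream of the receptors 33 were tested and 2 were called lower. Of the 12 semaphorins and plexins 7 were tested and 1 was called lower, and of the 7 other VEGF and angiopoietin ligands and receptors 3 were tested and 0 called, with 0 at an unadjusted p of 0.05 or less and 0 called by DESeq2.

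Plxna2, a plexin that pairs with neuropilins to receive semaphorins, was lower in PS2APP;Trem2ko microglia. It lay between 0.111 and 0.566 nRPKM in PS2APP;Trem2wt mice, with a median of 0.431 nRPKM, and between 0.0483 and 0.139 nRPKM in PS2APP;Trem2ko mice, with a median of 0.0804 nRPKM. On the counts its log2 fold change was -2.16 ± 0.37 (SE), with an adjusted p of 0.0055 by edgeR, and 4 of the 6 PS2APP;Trem2ko mice lay below every PS2APP;Trem2wt mouse. The most abundant plexin, Plxna4, was at 4.89 ± 0.965 (SD, n = 7) and 3.93 ± 0.855 (SD, n = 6) nRPKM. It differed by -0.32 ± 0.15 (SE) on the log2 scale (adjusted p = 0.34 by edgeR).

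Egln3, an oxygen-sensing prolyl hydroxylase that marks HIF for degradation and is itself a HIF target, was also lower. It lay between 2.25 and 8.21 nRPKM in PS2APP;Trem2wt mice, with a median of 4.35 nRPKM, and between 1 and 2.70 nRPKM in PS2APP;Trem2ko mice, with a median of 1.55 nRPKM. At a log2 fold change of -1.45 ± 0.27 (SE), Egln3 had an adjusted p of 0.00992 by edgeR. The other hypoxia genes did not pass the threshold by edgeR. Pfkfb3, a regulator of glycolysis, was at 27 ± 3.47 (SD, n = 7) and 36.6 ± 8.73 (SD, n = 6) nRPKM, a difference of 0.44 ± 0.14 (SE) on the log2 scale (adjusted p = 0.127 by edgeR). It was called higher by DESeq2 (adjusted p = 0.032) and by edgeR without PS2APP;Trem2ko replicate 2 (adjusted p = 0.047). The transcription factor Hif1a was at 84.0 ± 21.4 (SD, n = 7) and 69.7 ± 13.9 (SD, n = 6) nRPKM, a difference of -0.27 ± 0.15 (SE) on the log2 scale (adjusted p = 0.439 by edgeR). The glycolytic target Ldha had a log2 fold change of -0.11 ± 0.16 (SE) and an adjusted p of 0.796 by edgeR. Vegfa itself, a textbook HIF target, overlapped between genotypes as given above.

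Among the signalling genes, Mapkapk2, the kinase downstream of p38, lay between 27.2 and 60.9 nRPKM in PS2APP;Trem2wt mice, with a median of 37.7 nRPKM, and between 20.3 and 27.7 nRPKM in PS2APP;Trem2ko mice, with a median of 23.1 nRPKM. The log2 fold change of Mapkapk2 was -0.73 ± 0.15 (SE), with an adjusted p of 0.0211 by edgeR. This call was lost without PS2APP;Trem2ko replicate 4 (adjusted p = 0.0527 by edgeR) and without replicate 6 (adjusted p = 0.0503 by edgeR).

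The GTPase Rac1, which acts on the cytoskeleton, differed little in size but without overlap. It was the 1 gene of the 59 tested in the pathway lists without overlap, near the 1.22% of all genes fully separated in the lower direction. Rac1 lay between 41.4 and 50.6 nRPKM in PS2APP;Trem2wt mice and between 36.8 and 39.3 nRPKM in PS2APP;Trem2ko mice. For Rac1 the log2 fold change was -0.23 ± 0.06 (SE), with an adjusted p of 0.0483 by edgeR that lay just past the threshold and was lost in 17 of 22 alternative settings. The related GTPase Cdc42, the most abundant gene of this list, was at 168 ± 7.48 (SD, n = 7) and 160 ± 8.26 (SD, n = 6) nRPKM, with an adjusted p of 0.543 by edgeR.

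**Figure D4:**
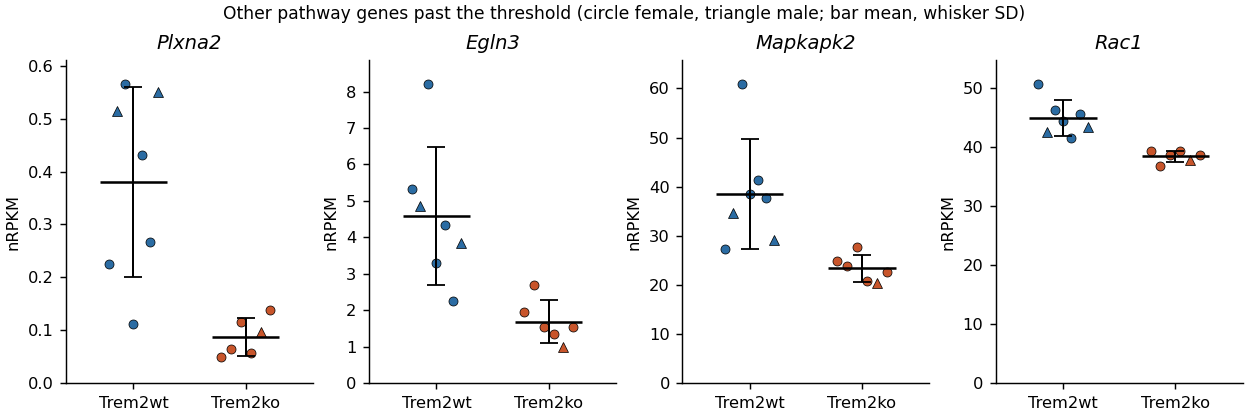
Each panel plots the nRPKM of 1 gene on a linear axis that starts at 0, by genotype, with circles for females, triangles for males, the mean as a bar and the SD as a whisker. In Rac1 the genotypes do not overlap (41.4 to 50.6 against 36.8 to 39.3 nRPKM), while Plxna2, Egln3 and Mapkapk2 are lower in PS2APP;Trem2ko microglia with an overlap of single mice.

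Of the other ligands and receptors, Tie1, the partner of Tek, was between 0.00391 and 1.31 nRPKM in PS2APP;Trem2wt and between 0.0037 and 0.158 nRPKM in PS2APP;Trem2ko mice (log2 fold change -1.35 ± 1.1, SE; adjusted p = 0.617 by edgeR). The sign of Tie1 was set by PS2APP;Trem2wt replicate 2, the mouse at 1.31 nRPKM: without it the log2 fold change was 0.64 ± 0.86 (SE), and the medians were 0.0489 nRPKM in PS2APP;Trem2wt and 0.105 nRPKM in PS2APP;Trem2ko mice. Vegfc, a ligand of Flt4, had 0 reads in 5 of 7 PS2APP;Trem2wt and 3 of 6 PS2APP;Trem2ko mice, and reached 83 reads in 1 PS2APP;Trem2wt mouse and 39 reads in 1 PS2APP;Trem2ko mouse. Vegfd had 0 reads in 5 and 3 mice and at most 2 reads in any. Angpt2, a Tek ligand, was tested at a log2 fold change of 0.21 ± 0.50 (SE) and an adjusted p of 0.894 by edgeR. Vegfc and Vegfd did not pass the expression filter, and a difference in Vegfd was not detectable at this depth.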

How the data were processed

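RNA-Seq data of FACS-sorted myeloid cells were examined for 7 PS2APP;Trem2wt and 6 PS2APP;Trem2ko mice. Libraries were made with a full-length cDNA kit for low input and sequenced as single-end reads of 50 bases. The authors aligned the reads to GRCm38 with GSNAP, named without a version in the submitters' processing notes, and deposited, for each mouse and gene, counts of uniquely aligned reads without normalization. The authors deposited RPKM values beside them, adjusted by a size factor (nRPKM). The annotation and the strand setting of the counting are not given in the sources used here. Symbols and positions were taken from the GENCODE vM21 annotation of GRCm38. At most 0.619% of the 50-base words of a family member's transcripts occurred in another gene.

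Counts were tested with edgeR 4.0.16 in R 4.3.3 (filterByExpr by genotype, TMM, glmQLFit and glmQLFTest, no covariate) over 17086 genes, with Benjamini-Hochberg adjustment over all of them and a threshold of 0.05. SEs were derived from the F statistic, as the absolute log2 fold change over its square root. nRPKM was used for levels per mouse, and sums of marker genes in log2(CPM + 0.1) for relations within a genotype. Two-sided exact permutation tests over pairings were computed in numpy 2.4.6, with ranks from scipy 1.17.1. The same comparison was repeated with voom+limma (limma 3.58.1), with DESeq2 1.42.0, with RLE factors, without a filter, with at least 10 counts required in 6 mice, with a term for sex, without males, with limma on nRPKM after adding 0.1 or 1, with the 2-fold cutoff and without each mouse in turn. Relations were also computed with nRPKM in place of CPM, with 1 added to CPM, with the mean of log2 marker values in place of the sum, and without each mouse in turn. An endothelial sum of 16 markers was added after seeing the data. The scripts were tested on simulated data.

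The members and lists were chosen with earlier results of these data known. Genes named are the 9 members, every listed pathway or marker gene with an adjusted p of 0.05 or less, up to 4 further genes a list with the highest mean nRPKM, and the 5 genes most like Flt1 in each ranking. Cldn5, Cdh5, Erg, Cyyr1, Angpt2, Vegfd, Pfkfb3, Cd163, Lyve1, P2ry12 and Tmem119 were named for their known roles, after values were seen. Plac8, Plxnd1 and Ptk2 were also named after values were seen, Plac8 to give every tested gene of its list. The lowest chi-square of counts per degree of freedom among 36 pairs of mice of the same genotype was 19.6, so no pair looked like 1 library deposited again. Replicate numbers were given in the order of the samples and pair nothing. The pairs in which most mice were processed are not identified in the labels, so every fit leaves them out.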

Additional observations from a re-analysis of the deposited data

Results flagged for a closer look

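Among 26 sets of values of 1 gene in 1 genotype, 5 held a mouse whose gap to the nearest other mouse exceeded Dixon's 95% critical value. For independent, normally distributed values chance gives about 1 such set in 20. The sets share the same mice, and some hold values near 0, so this rate is only a rough guide here. Flt4 was at 0.261 nRPKM in PS2APP;Trem2wt replicate 2, a male, against 0.0341 nRPKM in the next mouse. Tek was at 1.51 nRPKM in the same mouse, against 0.579 nRPKM in the next. Nrp1 was at 113 nRPKM in PS2APP;Trem2wt replicate 3, a female, against 78.4 nRPKM in the next mouse, and Mapkapk2 was at 60.9 nRPKM in that mouse, against 41.3 nRPKM in the next. Vegfb was lowest, at 13.5 nRPKM, in PS2APP;Trem2wt replicate 7, a male, against 16.4 nRPKM in the next mouse.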

How the results depend on the processing

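The log2 fold change of Flt1, a description, lay between -2.35 and -0.97 over 22 alternatives, the latter with 1 added to nRPKM. The number of family members called was 2 with DESeq2 (Flt1 and Nrp1) and between 1 and 2 when each mouse was left out, with Kdr added without PS2APP;Trem2wt replicate 3. Over all genes DESeq2 called 3.10% lower and 1.94% higher, and edgeR with the 2-fold cutoff called 0.691% lower and 0.0527% higher. Of the other pathway genes, 7 were called with DESeq2, 2 with the 2-fold cutoff, and between 2 and 4 when each mouse was left out. The 2 without PS2APP;Trem2ko replicate 4 or without replicate 6 were Egln3 and Plxna2. No endothelial marker was called by edgeR or in any of 23 alternatives. Relations with a marker sum say nothing of stability in PS2APP;Trem2ko mice, or in PS2APP;Trem2wt mice with 1 left out. There a single one could not reach an adjusted p of 0.05. The log2 fold change of Vegfa was -0.10 among females only and between -0.14 and 0.34 when each mouse was left out, and that of Vegfb was between -0.01 (without PS2APP;Trem2wt replicate 7) and 0.07. The log2 fold change of Tek was 0.26 with sex as a covariate, 0.38 among females only, 0.16 with limma on log2(nRPKM + 0.1), 0.01 on log2(nRPKM + 1), between -0.49 and 0.84 when each mouse was left out, and -1.41 with voom+limma. The causes were not tested. Low counts limit Flt4 (0 to 63 reads per mouse) and Pgf (0 to 20). No paired analysis was possible because the labels do not identify which mice were processed as a pair, and the replicate numbers used here only name the mice.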
